A study of Mus musculus with 12 samples.

Results

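Interferon-inducible GTPases are proteins that cells make in response to interferons and that act against microbes living inside the cell. The 10 genes described here were chosen by name, as 5 guanylate-binding proteins (Gbp2, Gbp3, Gbp4, Gbp6 and Gbp7) and 5 immunity-related GTPases (Iigp1, Igtp, Irgm1, Irgm2 and Ifi47), out of 55885 genes in the expression table. The table holds RNA-seq values from 12 mouse hearts, 3 in each of 4 groups. Saline hearts came from wild-type male mice (C57BL/6 in the labels and C57BL/6J in the methods, which give the latter for both genotypes), for which the labels give no treatment and the methods give saline. CDDP hearts came from wild-type mice that received cisplatin, a platinum drug that cross-links DNA, at 6 mg/kg into the peritoneum on days 1, 8 and 15. STING-/- and STING-/-+CDDP hearts came from mice lacking STING, the adaptor that answers DNA in the cytosol, without and with the same cisplatin course. The STING-/- mice came from another supplier than the wild-type mice, and all mice were 8 weeks old at the start and were examined on day 22. The study kept 6 mice per group, and each sequenced heart was taken as 1 animal, because no label ties hearts of different groups to the same mouse.

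Interferon-gamma, released mainly by T cells and natural killer cells, binds the receptor chains Ifngr1 and Ifngr2 and signals through the kinases Jak1 and Jak2 to the gamma-activated site (GAS) of its target genes. Type I interferons act through a complex with Stat2 and Irf9 that binds the interferon-stimulated response element (ISRE), and factors of the Irf family bind closely related letters. Guanylate-binding proteins coat vacuoles and free bacteria and are linked to inflammasome activation. Among the immunity-related GTPases, Irgm1, Irgm2 and Igtp guard the cell's own membranes and hold the effector members in check, while Iigp1 and Ifi47 belong to the effectors that load onto vacuoles of parasites such as Toxoplasma.

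Of the 10 genes, 9 lay in groups on chromosomes 3, 5 and 11 (GENCODE M21, GRCm38). Gbp7 (chr3:142530342-142550149), Gbp3 (chr3:142560026-142573209) and Gbp2 (chr3:142620602-142638008) lay close together on the plus strand, with Gbp2b between Gbp3 and Gbp2. Gbp4 (chr5:105115767-105139586) and Gbp6 (chr5:105270702-105293698) lay on the minus strand of chromosome 5. Chromosome 11 held Irgm1 (chr11:48861968-48871683, minus strand), Ifi47 (chr11:49076587-49096974), Igtp (chr11:58199556-58207591) and Irgm2 (chr11:58199618-58222782), the last 3 on the plus strand.

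Parts of the start regions are shown because 6 members held letters of an interferon response element there. RefSeq start regions (GRCm38.p6, 250 bases before to 50 bases after the start of transcription) were matched by symbol for 7 of the 10 members, Gbp2, Gbp3, Gbp7, Igtp, Irgm1, Irgm2 and Ifi47. The core letters of the ISRE and of the GAS were searched on both strands, the GAS as TTCNNNGAA, which reads the same on both. An ISRE match was found in 6 of the 7 genes and a GAS match in 3 of them, against 3.44% and 8.3% of all 32851 start regions. Each window below runs 5′ to 3′ on the strand of its gene, with the matches in capitals.
Gbp2, chr3:142620589-142620628, plus strand: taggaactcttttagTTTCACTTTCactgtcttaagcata
Gbp3, chr3:142559984-142560029, plus strand: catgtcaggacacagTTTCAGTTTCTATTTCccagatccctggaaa
Gbp7, chr3:142530215-142530307, plus strand: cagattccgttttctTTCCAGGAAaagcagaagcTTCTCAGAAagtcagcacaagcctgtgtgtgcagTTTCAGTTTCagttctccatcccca
Igtp, chr11:58199496-58199546, plus strand: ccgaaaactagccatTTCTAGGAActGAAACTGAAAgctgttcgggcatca
Irgm2, chr11:58214887-58214937, plus strand: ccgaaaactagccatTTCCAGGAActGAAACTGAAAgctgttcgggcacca
Irgm1, chr11:48871420-48871465, minus strand: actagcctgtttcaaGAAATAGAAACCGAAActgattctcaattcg

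Gbp3 and Irgm1 each held 2 ISRE matches that share 4 bases, and Gbp7 held 2 GAS matches and 1 ISRE match. Igtp and Irgm2 held a GAS match and an ISRE match side by side, and their windows were identical at 49 of 51 bases, with the differences T19C and T49C counted from the 5′ end of the window, Igtp letter first. Outside the members, Tgtp1, Tgtp2 and Gm12185 held such a pair in the same order and spacing. Start regions were examined for 8 of 19 other interferon-inducible GTPases, with an ISRE match in 7 and a GAS match in 5. No ISRE match overlapped a GAS match. Both kinds of match stood together in 0.454% of all start regions. Among the members, the nearest match ended 15 bases before the RefSeq start in Irgm1 and the farthest began 106 bases before it in Gbp7. In the gene models, the Irgm2 window lay in an intron of a longer transcript, the Irgm1 window in an exon of another transcript of that gene, and the last 27 bases of the Gbp2 window in the untranslated first exon. The window of Ifi47 held neither set of letters, which says only that these letters are not in these 300 bases. A match is a run of letters and does not show that a factor was bound in these hearts.

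**Figure D1:**
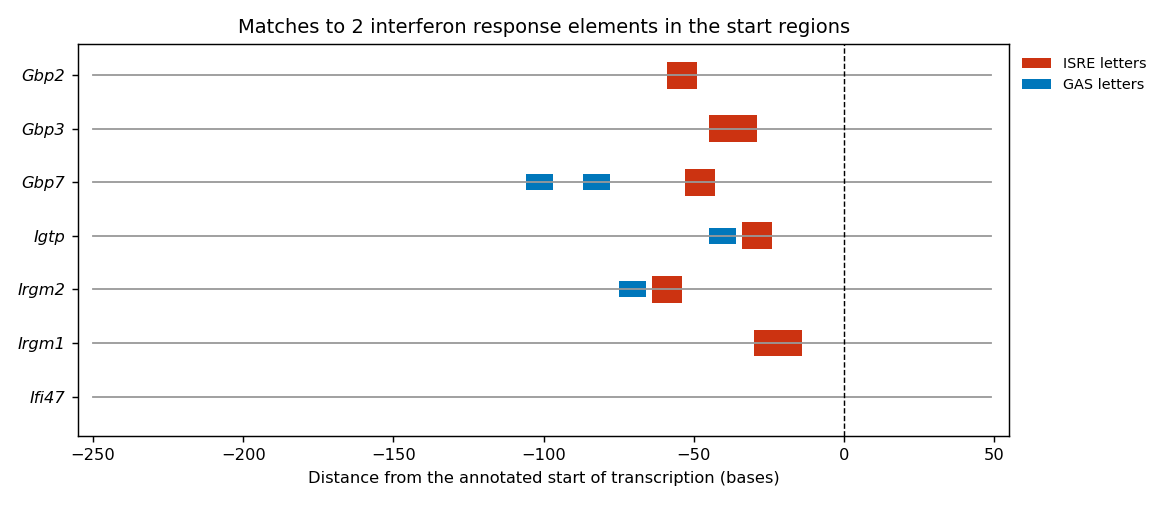
Matches to the ISRE (tall red blocks) and the GAS (low blue blocks) along the start regions of the 7 genes with a RefSeq entry, by distance in bases from the annotated start of transcription (dashed line, upstream to the left). For Gbp3 only the start region with matches is drawn. All matches lie between 106 and 15 bases upstream, and Ifi47 has none.

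Before the results, the quality of the libraries was examined. Values are TPM, each gene's share of the transcripts of a heart after correction for gene length, so levels of different genes can be compared, but the number of reads behind a value is unknown. A heart had 19680 to 21024 genes with a value over 0. Among the 3 Saline hearts, heart 1 was the highest of all 12 hearts for 8 of the 10 GTPases. Values of the members without it are given where it decided a call, a direction or an order. For single genes outside the members, no values without it are given. Saline heart 2 stood apart in another way. Its summed level of 5 atrial genes was 39132 TPM, against 310 and 339 TPM in the other Saline hearts and 331 to 14625 TPM in the hearts of the other groups. Leaving Saline heart 2 out still left 7 members called in the first comparison below, beside 18.7% of all tested genes. CDDP heart 1 had 1133 TPM over 8 neutrophil genes, against 46.0 and 28.7 TPM in the other CDDP hearts. Without CDDP heart 1, 5 members were called, beside 15.7% of all tested genes. Summed over 7 cardiomyocyte genes, the hearts held 22702 to 46741 TPM, which fits the labelled tissue. The RNA of the targeted gene Sting1 was at 6.50 to 12.3 TPM in Saline hearts, 5.62 to 22.1 TPM in CDDP hearts, 2.87 to 5.96 TPM in STING-/- hearts and 3.37 to 4.67 TPM in STING-/-+CDDP hearts. Each value covers the whole gene, so a deletion of part of it would not bring it to 0.

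In hearts without cisplatin the members spanned about an order of magnitude. In the Saline group the mean level was highest for Igtp at 74.8 TPM, followed by Iigp1 (48.5 TPM), Irgm2 (45.3 TPM), Irgm1 (43.9 TPM), Gbp2 (28.9 TPM), Gbp6 (27.1 TPM), Gbp3 (16.7 TPM), Ifi47 (10.7 TPM), Gbp4 (7.66 TPM) and Gbp7 (7.45 TPM). No neighbours in that order were separated, since the ranges of all of them overlapped. The order rested on heart 1 as well. Over the other 2 Saline hearts the mean of Igtp was 37.6 TPM, followed by Irgm1 (29.9 TPM), Irgm2 (26.1 TPM), Gbp2 (25.9 TPM) and Iigp1 (23.2 TPM). In the CDDP group Iigp1 was first at 20.4 TPM, followed by Gbp2 (18.8 TPM) and Gbp6 (17.6 TPM), and Igtp had moved to the fifth place at 11.6 TPM. In that group the ranges of Irgm2 and Gbp3, of Gbp3 and Ifi47, and of Ifi47 and Gbp7 did not overlap. In the STING-/-+CDDP group Gbp2 was first at 16.9 TPM, and Igtp stood at 12.2 TPM, behind Irgm1 and Gbp6, with a range that overlapped neither that of Gbp6 above it nor that of Irgm2 below it.

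To answer how cisplatin bears on these genes in wild-type hearts, CDDP hearts were compared with Saline hearts. The level of 7 of the 10 GTPases fell, Igtp and Irgm2 the most, and none rose. Differences are given on the log2(TPM + 1) scale with their standard error (SE), where a unit is a doubling of TPM + 1, and a gene passed where limma's Benjamini-Hochberg adjusted p over 13815 tested genes was below 0.05. By this rule 10.4% of all tested genes fell, 8.52% rose, and 18.9% changed in either direction. The median difference of the 10 members was -1.11, beside -0.00 over all tested genes. In bulk hearts a loss of cells that express a gene and less RNA per cell cannot be told apart.

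Among the 10 members, the guards of the immunity-related GTPases fell the most in this comparison. Some GTPases outside the members, given further below, fell as far or further. For Igtp the Saline hearts read 149, 33.9 and 41.3 TPM and the CDDP hearts 15.2, 10.5 and 9.15 TPM. All CDDP hearts lay below all Saline hearts, and the difference was -2.29 (SE 0.46; limma, adjusted p = 0.00714), or 4.90-fold. Irgm2 was at 83.7, 25.97 and 26.1 TPM in Saline hearts and 11.2, 10.9 and 8.79 TPM in CDDP hearts. Its groups did not overlap either, with a difference of -1.82 (SE 0.40; limma, adjusted p = 0.0102). Irgm1, a guard of lysosomes and mitochondria, was at 71.9, 29.4 and 30.4 TPM against 10.4, 14.0 and 17.6 TPM, a difference of -1.48 (SE 0.32; limma, adjusted p = 0.00955). Igtp and Irgm2 overlap by 7974 bases of their gene models on the same strand, and 5.67% of the 100-base windows of the Igtp transcript are also found in Irgm2, so reads there cannot be assigned to either gene with certainty.

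Of the effectors, Ifi47 fell and Iigp1 did not pass the test. Ifi47 was at 16.4, 8.19 and 7.55 TPM in Saline hearts and 4.03, 4.80 and 4.56 TPM in CDDP hearts, without overlap, and the difference was -1.02 (SE 0.30; limma, adjusted p = 0.0335). Its gene model overlaps that of the olfactory receptor gene Olfr56 over its whole length. Iigp1 (chr18:60376027-60392634, plus strand) was at 99.1, 22.9 and 23.4 TPM against 31.3, 18.2 and 11.7 TPM. Here CDDP heart 1 lay above a pair of Saline hearts, and the difference of -0.97 had a 95% interval from -2.18 to 0.25 (limma, adjusted p = 0.249).

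Among the guanylate-binding proteins, Gbp3, Gbp4 and Gbp7 fell. Gbp3 was at 25.6, 13.2 and 11.4 TPM in Saline hearts and 6.37, 6.86 and 6.08 TPM in CDDP hearts, a difference of -1.17 (SE 0.30; limma, adjusted p = 0.0216). Gbp4 was at 12.9, 3.83 and 6.26 TPM against 2.32, 2.46 and 1.90 TPM, with a difference of -1.29 (SE 0.34; limma, adjusted p = 0.0228). Gbp7 was at 11.1, 5.12 and 6.14 TPM against 2.25, 2.92 and 3.78 TPM, with a difference of -1.04 (SE 0.30; limma, adjusted p = 0.0339). The groups of these 3 genes did not overlap. The gene model of Gbp4 overlaps those of Gbp8 and Gbp9 on the same strand, and 2.88% of its windows occur in other genes. For Gbp7 the share is 10.2%, with 9.76% found in Gm43802, a processed pseudogene that overlaps it on the same strand.

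Gbp2 and Gbp6 did not pass. Gbp2, at 34.8, 26.6 and 25.2 TPM in Saline hearts and 20.6, 18.4 and 17.5 TPM in CDDP hearts, was lower in every CDDP heart, but its difference of -0.58 (95% interval -1.10 to -0.06) had an adjusted p of 0.111 by limma. Gbp6 was at 41.1, 18.6 and 21.7 TPM against 7.70, 25.5 and 19.5 TPM. Its groups overlapped, and the difference was -0.66 (95% interval -1.50 to 0.17; limma, adjusted p = 0.249). Gbp6 is the member most open to shared reads, since 82.9% of the 100-base windows of its transcript also occur in Gm43302, a gene model that covers it. When the TPM of Gbp6, Gbp10 and Gm43302 were summed, the difference was -0.42 (SE 0.33; limma, adjusted p = 0.406).

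In all, 8 of 10 members had every CDDP heart below every Saline heart, as had 17.1% of all tested genes. The values depended on Saline heart 1. Without it 3 members passed, Igtp at -1.64 (limma, adjusted p = 0.00978), Irgm2 at -1.27 (0.0186) and Irgm1 at -1.07 (0.0239), all 10 members were still below 0, and their median was -0.79. Iigp1 was then at -0.28 (limma, adjusted p = 0.732) and Gbp6 at -0.33 (0.633). Of all tested genes, 9.06% were called without that heart. Without CDDP heart 3, 4 members passed, beside 14.8% of all genes. A fit to the 6 Saline and CDDP hearts alone, which leaves fewer degrees of freedom, called 1 member and 5.95% of all genes, and testing all genes above 0 without a filter called 3 members and 7.52% of all genes.

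**Figure D2:**
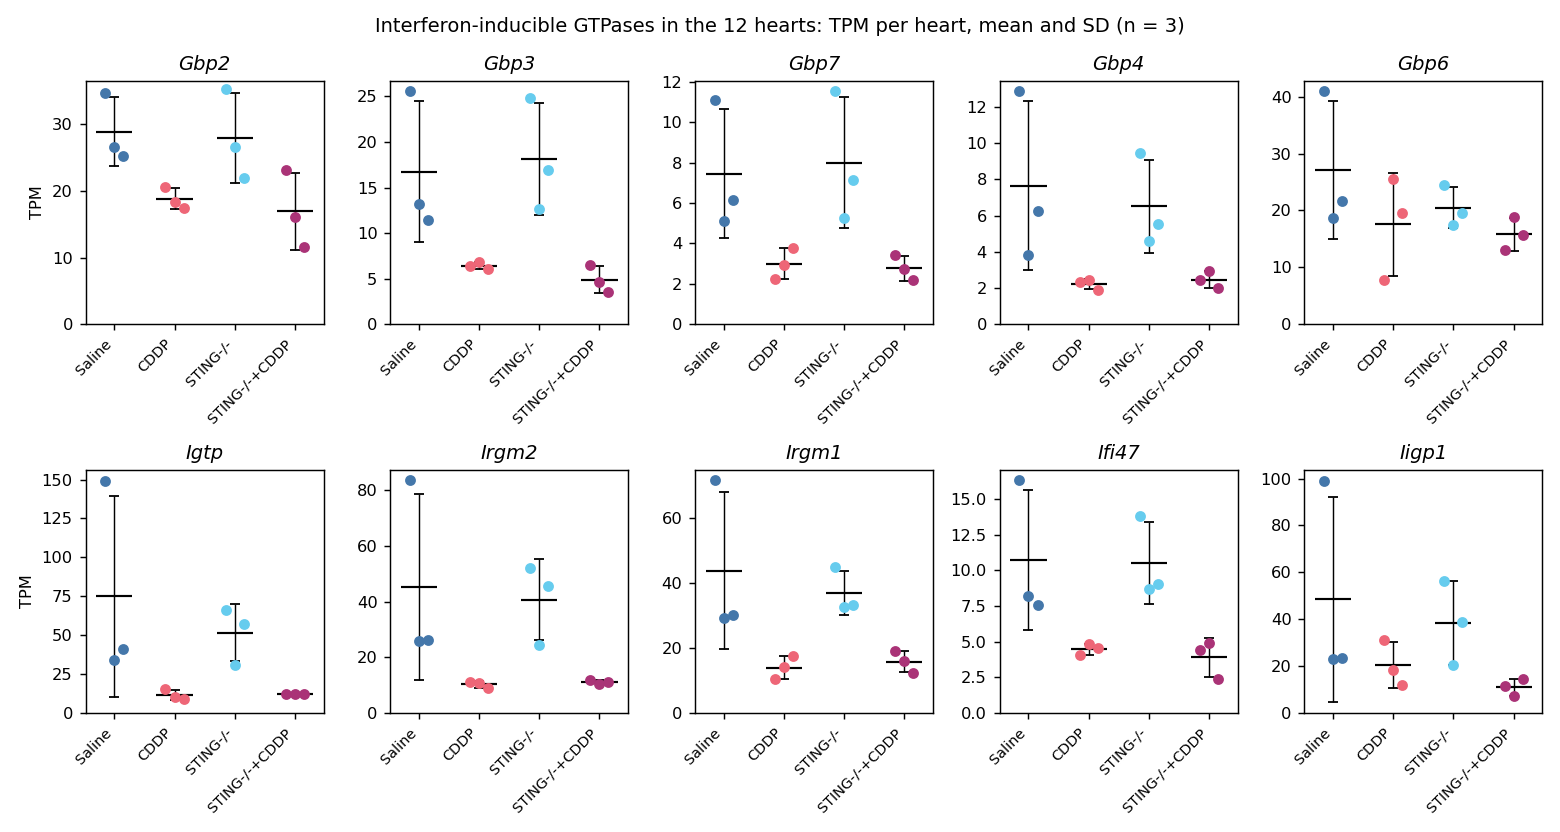
TPM of each GTPase gene in the 12 hearts, 1 panel per gene with a linear axis from 0, points in the order of the heart numbers, and the mean and SD of each group (n = 3) in black. For Gbp3, Gbp4, Gbp7, Igtp, Irgm1, Irgm2 and Ifi47 the 6 hearts with cisplatin all lie below the 6 hearts without it, and Saline heart 1 is the highest heart in 8 of the 10 panels.

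The same question was asked in mice without STING, by comparing STING-/-+CDDP hearts with STING-/- hearts. The values were lower after cisplatin for all 10 genes, with a median difference of -1.22 beside -0.11 over all tested genes, but 1 member passed the test, against 0.68% of all tested genes that fell. Gbp3, at 24.8, 12.7 and 17.0 TPM in STING-/- hearts and 6.53, 4.63 and 3.55 TPM in STING-/-+CDDP hearts, fell by 1.68 on the log2 scale (SE 0.30; limma, adjusted p = 0.0278). Before adjustment, 9 of the 10 members had p below 0.05, beside 13.5% of all tested genes. When TPM were rescaled by the median of ratios the median over all tested genes moved from -0.11 to 0.01, and that of the members to -1.12.

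Igtp was at 66.1, 31.0 and 57.3 TPM in STING-/- hearts and at 12.4, 12.3 and 12 TPM in STING-/-+CDDP hearts, a difference of -1.92 (95% interval -2.93 to -0.91; limma, adjusted p = 0.0787). Irgm2 went from 52.1, 24.2 and 45.6 TPM to 11.8, 10.6 and 11.3 TPM, a difference of -1.70 (95% interval -2.57 to -0.83; limma, adjusted p = 0.0731). Both had their treated hearts within a narrow band below all untreated ones. For Irgm1, at 44.9, 32.8 and 33.4 TPM against 19.0, 15.99 and 12.5 TPM, the difference was -1.18 (95% interval -1.88 to -0.49; limma, adjusted p = 0.117).

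Among the effectors, Iigp1 was at 56.2, 20.4 and 38.9 TPM in STING-/- hearts and 11.5, 7.04 and 14.3 TPM in STING-/-+CDDP hearts. Unlike in wild-type mice its groups did not overlap here, and the difference was -1.66 (95% interval -2.88 to -0.44; limma, adjusted p = 0.201). Ifi47 was at 13.8, 8.66 and 9.02 TPM against 4.44, 4.90 and 2.35 TPM, a difference of -1.24 (95% interval -1.89 to -0.60; limma, adjusted p = 0.0775).

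Gbp4 was at 9.44, 4.59 and 5.52 TPM against 2.42, 2.96 and 2.02 TPM, with a difference of -1.07 (95% interval -1.82 to -0.33; limma, adjusted p = 0.176). Gbp7 was at 11.6, 5.25 and 7.16 TPM against 3.41, 2.72 and 2.19 TPM, with a difference of -1.20 (95% interval -1.86 to -0.55; limma, adjusted p = 0.0935). In both genes the treated hearts lay below all untreated hearts. The groups of Gbp2 overlapped, at 35.3, 26.5 and 21.97 TPM against 23.1, 16.1 and 11.6 TPM, and its difference was -0.71 (95% interval -1.24 to -0.19; limma, adjusted p = 0.201). Those of Gbp6 overlapped as well, at 24.6, 17.4 and 19.6 TPM against 13.0, 18.8 and 15.6 TPM, with a difference of -0.36 (95% interval -1.19 to 0.48; limma, adjusted p = 0.736).

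In this genotype 8 of 10 members did not overlap between the groups, as did 16.9% of all tested genes in the same direction. The call of Gbp3 was lost when any 1 of the 6 hearts compared was left out, and without Saline heart 1, which enters only through the filter and the shared estimate of the spread, 5 members passed, beside 1.15% of all tested genes in either direction.

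A comparison of all 6 hearts with cisplatin and all 6 without it was added after these values were seen, as the mean of both changes. By limma, 9 of the 10 members fell, beside 12.6% of all tested genes. The mean change was -2.11 for Igtp (SE 0.33; limma, adjusted p = 0.00153), -1.76 for Irgm2 (0.00177), -1.43 for Gbp3 (0.00134), -1.33 for Irgm1 (0.00239) and -1.31 for Iigp1 (0.0368). It was -1.18 for Gbp4 (0.00646), -1.13 for Ifi47 (0.00385), -1.12 for Gbp7 (0.00452) and -0.65 for Gbp2 (0.0209). Gbp6, at -0.51 (95% interval -1.10 to 0.08; limma, adjusted p = 0.212), did not pass. All 6 hearts with cisplatin lay below all 6 others for 7 members, as they did for 6.15% of all tested genes. With a heart left out, 7 to 9 members passed, beside 13.7% to 19.5% of all tested genes in either direction. Without Saline heart 1 the calls of Gbp2 (-0.58; limma, adjusted p = 0.0541) and Iigp1 (-0.97, 0.0566) were lost.

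**Figure D3:**
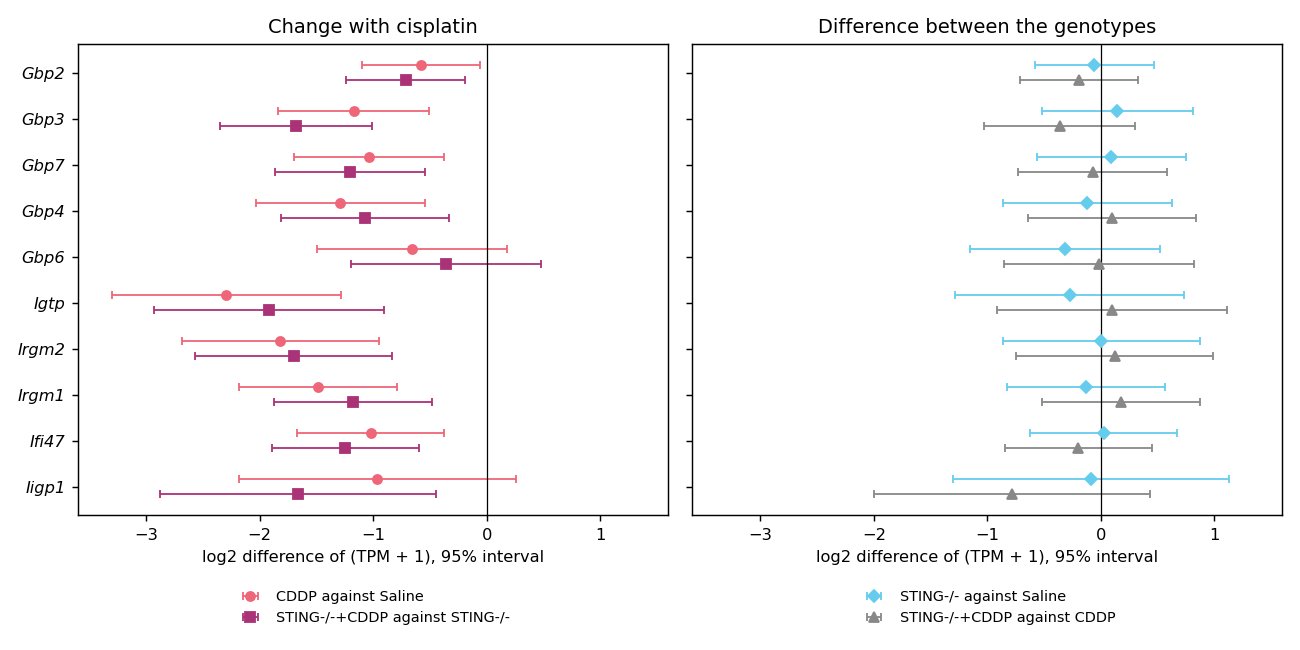
Differences on the log2(TPM + 1) scale with 95% intervals from limma. The left panel shows the change with cisplatin in wild-type (circles) and STING-/- hearts (squares), where all points lie below 0, and the right panel shows STING-/- against Saline (diamonds) and STING-/-+CDDP against CDDP (triangles), where all intervals include 0.

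The levels of these genes were also compared between the genotypes. Of 5 tested genes of the cGAS-STING route, Sting1 among them, 0 passed by limma between the genotypes without or with cisplatin. The lowest adjusted p with cisplatin was 0.0806. The RNA of the targeted gene was thus itself not called, so 0 members passing does not show equal levels. Without cisplatin, 0 of 10 members passed in STING-/- against Saline hearts by limma, beside 0.0724% of all tested genes, and 0 had an unadjusted p below 0.05, beside 3.69%. The differences ran from -0.32 for Gbp6 to 0.15 for Gbp3, and the 95% intervals reached from -1.30 to 1.13, both for Iigp1. Without Saline heart 1 all 10 differences were above 0, from 0.01 for Gbp6 to 0.60 for Iigp1, and again 0 passed. Under cisplatin, 0 of 10 members passed in STING-/-+CDDP against CDDP hearts, beside 1.22% of all tested genes, and 0 had an unadjusted p below 0.05, beside 19.8%. The differences ran from -0.78 for Iigp1 to 0.18 for Irgm1, with adjusted p between 0.466 and 0.988.

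In both comparisons the ranges of the genotypes overlapped for all 10 members. Of all tested genes, 4.88% had every STING-/- heart below and 2.76% above every Saline heart, and 15.6% had every STING-/-+CDDP heart below and 7.12% above every CDDP heart. Under cisplatin the groups were near each other for Igtp, with means of 11.6 ± 3.18 (SD, n = 3) and 12.2 ± 0.201 TPM (SD, n = 3), and its difference of 0.10 had a 95% interval from -0.91 to 1.11. That of Gbp3 was -0.36, from -1.03 to 0.30, and that of Iigp1 was -0.78, from -2.002 to 0.43. The CDDP and STING-/- hearts are each shared between comparisons, so their differences are not independent.

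The change with cisplatin itself was compared between the genotypes as an interaction. Again 0 of 10 members passed by limma, beside 0.00724% of all tested genes, and 0 had an unadjusted p below 0.05, beside 11.7%. The differences in the change ran from -0.70 for Iigp1 to 0.37 for Igtp, where a negative value is a larger fall in STING-/- hearts, and the intervals reached from -2.42 to 1.80. Without Saline heart 1 all 10 were below 0, from -1.38 for Iigp1 to -0.03 for Gbp6, with Igtp at -0.28 and Gbp3 at -0.84, and 0 passed. Averaged over both treatments, the difference between the genotypes ran from -0.43 for Iigp1 to 0.06 for Irgm2, with intervals from -1.30 to 0.68. By limma 0 members passed, beside 0.181% of all tested genes, with 0 at an unadjusted p below 0.05. Without Saline heart 1, 8 of these 10 differences were above 0, from -0.09 for Iigp1 to 0.34 for Irgm2, and 0 passed.

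Of 19 other interferon-inducible GTPases listed, 14 were tested. In CDDP against Saline hearts 9 fell, beside 10.4% of all tested genes, and none rose, with a median of -0.92. F830016B08Rik fell by 2.58 (limma, adjusted p = 0.0246), from 47.0, 3.46 and 7.61 TPM to 1.37, 1.45 and 0.50 TPM. Tgtp2, an effector like Iigp1, fell by 2.27 (0.00415), and Gm12250, annotated as a processed pseudogene, fell by 2.09 (0.00372). Tgtp2 shares 80.4% of its windows with its copy Tgtp1, which fell by 1.34 (0.0207), so the reads of both are uncertain. Gm4841 (-2.15), Gbp9 (-1.21), Gvin1 (-1.06), Gm4951 (-0.79) and Mx1 (-0.78) also fell, while Gbp5 (-0.62, limma, adjusted p = 0.209) and Mx2 (0.09, 0.865) did not pass. The reads of Gvin1 are uncertain too, since 97.8% of its windows occur in other genes. In STING-/- hearts 14 of 14 were lower with cisplatin, and 1 passed, Gm12250 at -1.90 (limma, adjusted p = 0.0362), beside 0.68% of all tested genes that fell.

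The pathway upstream of the members was followed from the ligand down. Ifng itself, the gene of interferon-gamma, was at 0.20, 0 and 0.35 TPM in Saline hearts and at 0.05, 0 and 0 TPM in STING-/- hearts, and was listed at 0 in all 6 hearts with cisplatin. Of the 12 genes of interferons and other cytokines listed as ligands, 8 were listed at 0 in every heart. Only Il18, which is not an interferon, was tested, at -0.34 in CDDP against Saline hearts (limma, adjusted p = 0.471). Among 7 receptor chains and kinases, Ifngr2, the signalling chain of the interferon-gamma receptor, fell by 1.29 (SE 0.19; limma, adjusted p = 0.00148), from 62.5, 37.5 and 40.2 TPM to 17.2, 16.8 and 20.04 TPM. Its partner Ifngr1 differed by -0.10 (95% interval -0.58 to 0.37; limma, adjusted p = 0.776). The kinase gene Jak2 rose by 0.53 (0.0397). In STING-/- hearts Ifngr2 differed by -0.47 (0.289) and Jak2 by 0.01 (0.985), and 0 of the 7 passed in the interaction.

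Of 9 transcription factors listed, 8 were tested. In CDDP against Saline hearts 4 fell, beside 10.4% of all tested genes, while none rose. Irf7, an amplifier of the type I response, fell by 1.88 (limma, adjusted p = 0.00174), and Irf9, part of the complex that binds the ISRE, fell by 1.01 (0.00294). Nlrc5, an activator of MHC class I genes, fell by 1.67 (0.0222) and Batf2 by 1.12 (0.0338). Irf1, which binds ISRE-like letters, was at 30.6, 18.5 and 21.95 TPM in Saline hearts and 22.7, 15.4 and 24.6 TPM in CDDP hearts, a difference of -0.17 (95% interval -0.70 to 0.36; limma, adjusted p = 0.673). In STING-/- hearts Irf7 fell by 2.14 (limma, adjusted p = 0.00753) and Irf9 by 1.18 (0.0114).

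Among 6 inhibitors of the pathway tested, Socs3 rose in CDDP against Saline hearts, from 3.15, 4.24 and 3.74 TPM to 70.8, 10.6 and 24.3 TPM, a difference of 2.56 (SE 0.52; limma, adjusted p = 0.00736). Usp18, itself an interferon target that damps the type I receptor, fell by 1.17 (0.00963), and in STING-/- hearts by 1.37 (0.0298). Socs3 differed there by 1.00 (0.437), and 0 of the 6 passed in the interaction (limma, lowest adjusted p = 0.440).

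**Figure D4:**
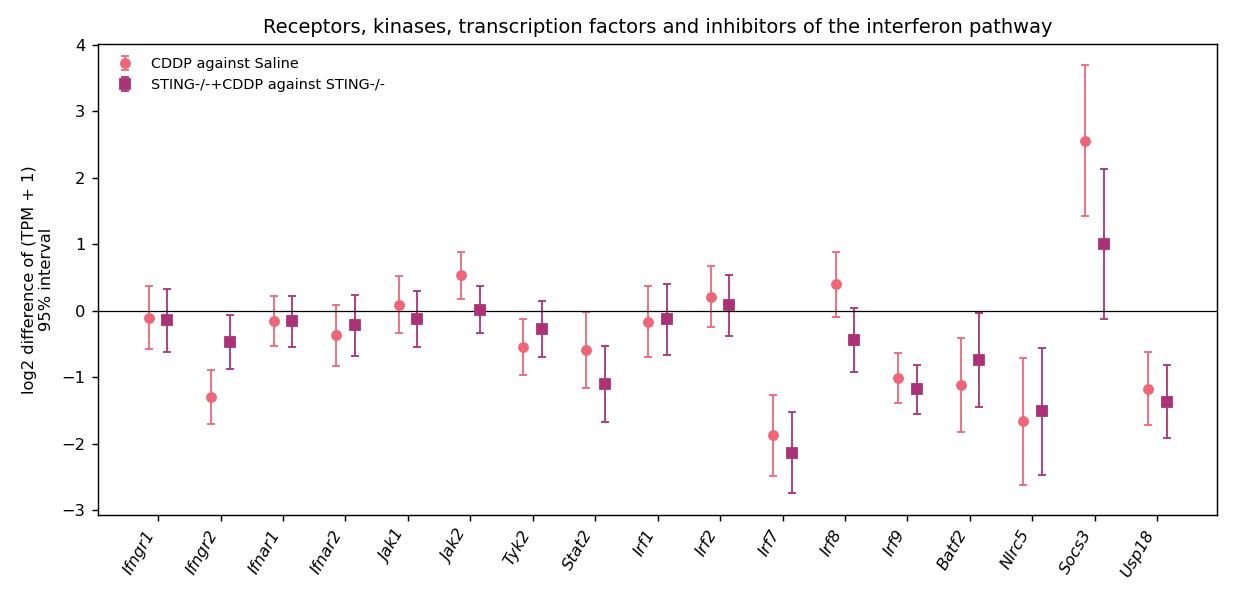
Change with cisplatin of 17 genes of the interferon pathway on the log2(TPM + 1) scale with 95% intervals from limma, in wild-type (circles) and STING-/- hearts (squares). Irf7, Irf9, Batf2, Nlrc5 and Usp18 lie below 0 in both genotypes, Ifngr1 and Irf1 lie near 0, and Socs3 lies above 0.

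Other targets of interferon were lower along with the GTPases. Of 15 other interferon-gamma targets tested, 8 fell in CDDP against Saline hearts, beside 10.4% of all tested genes, and none rose, with a median of -0.93. The members that fell include the immunoproteasome subunits Psmb9 (-1.62), Psmb10 (-1.10) and Psmb8 (-1.04), the proteasome activator Psme1 (-0.73), the MHC class I light chain B2m (-1.16), the peptide transporter Tap1 (-1.12), the chemokine Cxcl9 (-1.71) and Nos2 (-1.33). In STING-/- hearts all 15 were lower with cisplatin, with a median of -0.72, and 1 passed, beside 0.68% of all tested genes that fell. Of 22 type I targets, 17 fell in CDDP against Saline hearts and 10 in STING-/- hearts, beside 10.4% and 0.68% of all tested genes. Isg15, a ubiquitin-like modifier, was at -1.37 and -1.63, Oas1a at -1.84 and -1.81, and Bst2 at -1.95 and -1.47, and these 3 passed in both genotypes. So did Ifit1, Ifit3b, Rtp4, Zbp1, Dhx58 and Ddx58, while Ifit3, Ifi27l2a, Ifi44, Rsad2, Cmpk2, Xaf1, Oasl1 and Oas2 passed in wild-type hearts and Eif2ak2 in STING-/- hearts. In the interaction 0 of the 22 passed by limma, with 0 at an unadjusted p below 0.05. In STING-/-+CDDP against CDDP hearts 0 of the 15 and 0 of the 22 passed by limma, with 0 and 1 at an unadjusted p below 0.05.

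The genes whose pattern over the 12 hearts was most like that of the GTPases were found with Pearson's r between log2(TPM + 1) and the mean of the members' z-scores. Outside the GTPase families they were Usp18 (r = 0.97), Ddx60 (0.97), Dtx3l (0.96), Isg15 (0.96) and Phf11d (0.96). The hearts differ between groups, which all these genes share, and with the group means taken off r was 0.88, 0.90, 0.94, 0.87 and 0.90. These genes were picked for their r over the same hearts, so those values are not a separate check. The members' mean z-score was 1.82 in Saline heart 1, against 0.25 and 0.38 in the other Saline hearts. It was 1.29 in STING-/- heart 1, against 0.26 and 0.61, and r without these hearts was not computed. Of the members themselves, 7 had r of 0.97 or 0.98 with the mean that contains them, while Gbp2 (0.88), Iigp1 (0.86) and Gbp6 (0.69) followed it less closely. The values are a description over 12 hearts in 4 groups.

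Markers of macrophages and lymphocytes were lower along with the GTPases, and those of neutrophils were not. Summed over the 10 members, the hearts held 188 to 546 TPM in the Saline group, 101 to 114 TPM in the CDDP group, 184 to 339 TPM in the STING-/- group and 87.4 to 108 TPM in the STING-/-+CDDP group. Over 9 macrophage genes the ranges were 538 to 684, 152 to 312, 492 to 729 and 209 to 403 TPM. In CDDP against Saline hearts 7 of the 9 fell, beside 10.4% of all tested genes. They were Csf1r (-1.81), Mrc1 (-1.72), Adgre1 (-1.55), C1qc (-1.43), C1qa (-1.29), C1qb (-1.21) and Fcgr1 (-1.06). Over 8 neutrophil genes the ranges were 8.57 to 33.2, 28.7 to 1133, 5.40 to 93.8 and 37.8 to 50.4 TPM. In CDDP against Saline hearts all 6 that were tested lay above 0, with a median of 2.51. By limma 0 passed, with 4 at an unadjusted p below 0.05, beside 33.9% of all tested genes. Over 11 T or natural killer cell genes they were 7.55 to 27.4, 1.21 to 3.15, 6.80 to 12.6 and 1.83 to 2.61 TPM. In that list 4 genes were tested, of which Nkg7 and Gzma fell, and the natural killer cell gene Ncr1 was at 0 in all 6 hearts with cisplatin. Over 6 B cell genes the ranges were 13.5 to 26.6, 0.97 to 1.29, 10.1 to 17.3 and 1.82 to 2.08 TPM, and Saline heart 1 was the highest in both lymphocyte lists. Below 1 TPM in every heart were 4 of the 6 B cell genes and 5 of the 11 T or natural killer cell genes.

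Over 9 endothelial genes the ranges were 813 to 863, 612 to 706, 501 to 754 and 533 to 765 TPM, and 4 of the 9 (Kdr, Cdh5, Tie1 and Egfl7) fell in CDDP against Saline hearts. In the same comparison 3 of 6 fibroblast genes, 3 of 7 mural cell genes and 5 of 5 red blood cell genes fell. Of all tested genes 10.4% fell there. The fibroblast sums overlapped, at 718 to 1763 TPM in Saline and 977 to 2084 TPM in CDDP hearts. The mural cell sums were 440 to 582 and 161 to 372 TPM. Red blood cell sums were 4146 to 9317 TPM in Saline and 41.95 to 1271 TPM in CDDP hearts. They were 264 to 1465 TPM in STING-/- and 81.9 to 311 TPM in STING-/-+CDDP hearts. In STING-/-+CDDP against STING-/- hearts 2 of 9 macrophage genes fell and 0 of 9 endothelial genes passed, beside 0.68% of all tested genes that fell. With so few calls in that comparison, 0 of 9 does not set the genotypes apart. The part of these cells in the lower GTPase levels was not tested.

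**Figure D5:**
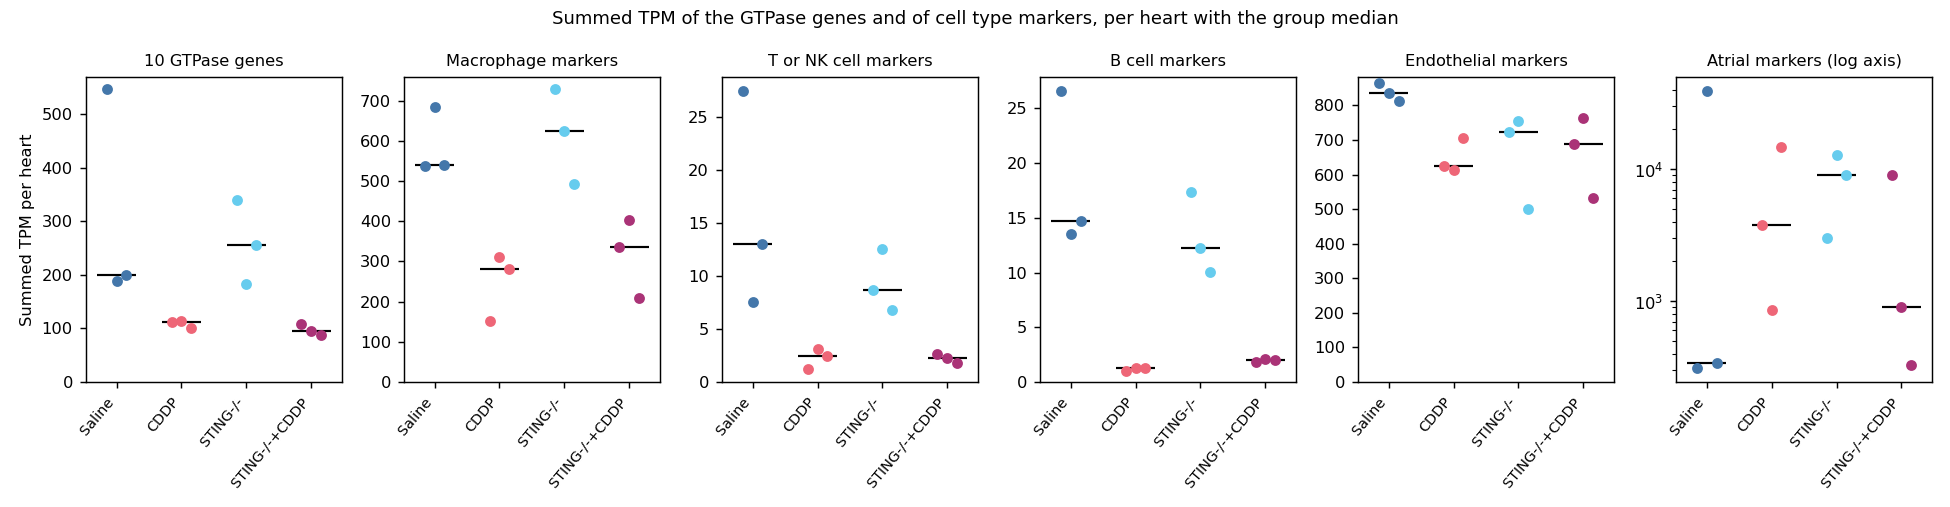
Summed TPM per heart of the 10 GTPase genes and of markers of macrophages, T or natural killer cells, B cells, endothelial cells and atrial cardiomyocytes (the last on a log axis, the others from 0), with the group median as a line (n = 3). The GTPase, macrophage and both lymphocyte sums are lower in all hearts with cisplatin than in all hearts without it, the endothelial sums overlap, and Saline heart 2 is far above the other Saline hearts in atrial markers.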

How the data were processed

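Total RNA of 12 hearts, 3 per group, was sequenced, and the authors deposited 1 table of TPM with a column for each heart. The submitters' processing notes name fastp, HISAT, RSEM and GRCm38.p5, and no source used here states a scaling between hearts. Groups came from the genotype and treatment in the labels. The deposited columns of group means were not used. TPM carry no read counts, so the depth per heart is unknown, neither intervals nor detection floors that need it are given, and no count test was run.

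The 13815 genes that reached 1 TPM in 3 or more hearts were fitted as log2(TPM + 1) over all 12 hearts, which share 1 estimate of the spread. The fit used lmFit, contrasts.fit and a trended eBayes of limma (version 3.58.1, under R 4.3.3) and had 8 residual degrees of freedom. Tests were two-sided with Benjamini-Hochberg adjustment over all tested genes and a threshold of 0.05. The procedure was tested on simulated data. The sources do not say whether the hearts were prepared as separate batches, and p-values measure the spread between these hearts.

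The members, the gene lists, the marker lists and the tests were chosen with earlier results of these data known. All 10 members are named. A pathway gene of the lists is not reported here and stays out of their counts. A gene of the pathway lists is named where it passed in a comparison discussed or defines its list, as are the 5 genes outside the families with the highest r to the members. Positions and shared 100-base windows came from GENCODE M21, and start regions from RefSeq (GRCm38.p6), read with Python 3.11.15. Alternatives were the pseudocount, the filter, 3 scalings, the variance model, weights per heart, the hearts in the fit, the replicate number as a block and leaving out each heart. Summing Gbp6 with its copies and the mean change over both genotypes were added after the data were seen.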

Additional observations from a re-analysis of the deposited data

How the results depend on the processing

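The members stayed below 0 in both cisplatin comparisons and in their mean under every alternative run, while the counts of calls moved. Of the 7 members called in CDDP against Saline hearts, the number called was 3 without a filter on low values, 1 with only the groups compared, and 3 to 7 with a heart left out (3 without Saline heart 1 and 4 without CDDP heart 3). In these settings 7.52%, 5.95% and 9.06% to 18.7% of all tested genes were called. In STING-/-+CDDP against STING-/- hearts, with 1 called, the counts were 0 without a filter, 4 with only the groups compared, 7 with weights per heart, 2 with the replicate block, and 0 to 5 with a heart left out, 0 without any of the 6 hearts compared. Of all tested genes 0.166%, 1.48%, 4.44%, 0.825% and 0.131% to 1.49% were called in these settings, in the same order. Over both genotypes 9 were called, and 7 to 9 with a heart left out, beside 13.7% to 19.5% of all tested genes. The genotype comparisons and the interaction stayed at 0. The cause of these moves was not tested. The numbers of the hearts were taken to name animals and not to pair them, because no label ties hearts of different groups. The deviations of same-numbered hearts from their group means correlated at -0.33 to 0.26, with no pair of groups above 0.1 for every number. For Saline and STING-/- hearts the values were 0.13, 0.26 and 0.061, all above 0. With the number as a block 8 members were called in CDDP against Saline hearts, 9 in the mean, and 0 between the genotypes. Of all tested genes that block called 15.7% in CDDP against Saline hearts and 17% in the mean. In STING-/-+CDDP against CDDP hearts, 50 of the 168 genes called among all tested genes were higher, and 314 of 671 with quantile normalization. Reads per gene are unknown, so the precision of low values cannot be given.

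Signs changed only for values between the genotypes, which passed in no alternative. Under the median of ratios, the values that changed sign were Gbp6 at 0.10 and Gbp7 at 0.018 in STING-/-+CDDP against CDDP hearts, Irgm2 at -0.0014 in STING-/- against Saline hearts, and Gbp4 at 0.025 in the mean difference between the genotypes. Under quantile normalization, the values that changed sign were Gbp6 at 0.11 and Gbp7 at 0.0040 in STING-/-+CDDP against CDDP hearts, Gbp2 at 0.0028 in the interaction, and Gbp4 at 0.013 in the mean difference between the genotypes. Under TPM without mitochondrial genes, the values that changed sign were Gbp6 at 0.060 in STING-/-+CDDP against CDDP hearts, and Gbp4 at 0.034 in the mean difference between the genotypes. Under a pseudocount of 0.1, the value that changed sign was Gbp4 at 0.0054 in the mean difference between the genotypes. Under weights per heart, the values that changed sign were Gbp3 at -0.042, Gbp7 at -0.079, Irgm2 at -0.37 and Ifi47 at -0.18 in STING-/- against Saline hearts, Gbp2 at 0.069, Gbp7 at 0.045 and Ifi47 at 0.11 in the interaction, and Gbp7 at -0.057, Irgm1 at -0.10 and Irgm2 at -0.13 in the mean difference between the genotypes. In STING-/-+CDDP against CDDP hearts, values with a heart left out ranged over Gbp2 -0.43 to 0.037, Gbp4 -0.0017 to 0.19, Gbp6 -0.49 to 0.32, Gbp7 -0.21 to 0.068, Igtp -0.043 to 0.29, Irgm1 -0.0092 to 0.34 and Ifi47 -0.35 to 0.055. In STING-/- against Saline hearts, values with a heart left out ranged over Gbp2 -0.23 to 0.095, Gbp3 -0.094 to 0.48, Gbp4 -0.47 to 0.29, Gbp6 -0.54 to 0.014, Gbp7 -0.18 to 0.38, Iigp1 -0.43 to 0.60, Igtp -0.67 to 0.38, Irgm1 -0.35 to 0.29, Irgm2 -0.27 to 0.55 and Ifi47 -0.17 to 0.35. In the interaction, values with a heart left out ranged over Gbp2 -0.37 to 0.095, Gbp4 -0.19 to 0.57, Gbp6 -0.17 to 0.63, Gbp7 -0.46 to 0.11, Igtp -0.28 to 0.77, Irgm1 -0.11 to 0.52, Irgm2 -0.43 to 0.39 and Ifi47 -0.54 to 0.031. In the mean difference between the genotypes, values with a heart left out ranged over Gbp3 -0.23 to 0.059, Gbp4 -0.19 to 0.19, Gbp6 -0.40 to 0.00045, Gbp7 -0.13 to 0.16, Igtp -0.29 to 0.24, Irgm1 -0.085 to 0.23, Irgm2 -0.076 to 0.34 and Ifi47 -0.19 to 0.074.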

Other observations

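Guanylate-binding proteins and immunity-related GTPases reach their target membranes with the help of the ubiquitin-like conjugation system of autophagy. Of 13 genes of that system tested, 4 rose in CDDP against Saline hearts by limma and none fell, beside 8.52% of all tested genes that rose. They were Sqstm1, an adaptor of selective autophagy (1.72, adjusted p = 0.000601), Map1lc3b (1.49, 0.000407), Gabarapl1 (1.41, 0.024) and Gabarap (0.59, 0.014), the last 3 being Atg8 proteins that are joined to membrane lipids. The conjugating genes Atg3 (-0.06), Atg5 (-0.27), Atg7 (-0.28), Atg12 (0.26) and Atg16l1 (0.15) did not pass. In STING-/- hearts Map1lc3b rose by 0.94 (limma, adjusted p = 0.0217) and Sqstm1 by 0.93 (0.0415). Sqstm1 was lower in STING-/-+CDDP than in CDDP hearts, at -0.89 (limma, adjusted p = 0.0462), and its interaction did not pass (-0.78, adjusted p = 0.348).

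For the counts that follow, 18.9% of all tested genes were called in that comparison, in either direction. Of 7 inflammasome genes that act with guanylate-binding proteins and were tested, Casp4, the sensor of cytosolic lipopolysaccharide, rose in CDDP against Saline hearts by 1.02 (limma, adjusted p = 0.0436), and the adaptor Pycard fell by 0.87 (0.0426). Casp1 (-0.24), Aim2 (-0.20), Gsdmd (-0.23), Il1b (0.87) and Ninj1 (0.66) did not pass, and 0 of the 7 passed in STING-/- hearts, with 2 at an unadjusted p below 0.05. Among 5 genes of the cGAS-STING route tested, the kinase gene Tbk1 rose by 0.56 in CDDP against Saline hearts (limma, adjusted p = 0.0394), and it differed by -0.19 in STING-/- hearts (0.677). In the interaction 0 of the 5 passed (limma, lowest adjusted p = 0.333), with 1 at an unadjusted p below 0.05.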
